A study of Mus musculus with 58 samples.

Results

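Of the 58 cells sequenced, 23 were compared here for the membrane potential at which they rested: 13 depolarized cells, whose label vrest was -55 or above, and 10 hyperpolarized cells, whose vrest was -64 or below. The remaining cells were 26 with a vrest in between, which are used here only as a reference, 5 that passed quality control without a vrest, and 4 labelled Fail. The labels give no unit for vrest, and its values were read as mV. All came from PV-Cre::Ai9 mice and were recorded in the ventral subiculum. In this strain Cre follows the parvalbumin gene and turns on a red reporter, so a cell that used that gene only earlier in life carries the reporter too. After recording, the contents of 1 cell at a time were taken up through the patch pipette, and each gave 1 library. The depolarized side held 2 cells of male mice aged P35, 4 of males aged P36, 3 of females aged P40 and 4 of females aged P42. The hyperpolarized side held 5, 3, 2 and 0 cells of the same sexes and ages. No treatment or genotype separates the sides. The labels do not say which cells share 1 of the 4 male and 3 female animals.

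Parvalbumin (PV) interneurons are fast-spiking inhibitory neurons that release GABA onto the cell bodies and axons of nearby neurons. The resting potential of a neuron is set by the balance of potassium leak, carried by two-pore domain (Kcnk) and inward rectifier (Kcnj) channels, against sodium leak through NALCN and cation currents through HCN channels. The sodium-potassium pump maintains the gradients behind these currents, and chloride transporters decide in which direction GABA-A receptors move the potential.

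Over all cells, library size and quality overlapped between the sides, but total counts did not overlap in the P35 male pair. Its 2 depolarized cells had 4.76 M and 2.07 M counts, and its 5 hyperpolarized cells 8.29 M to 28.1 M. The sums of that pair held 6.83 M and 73.5 M counts. Total counts per cell ranged from 2.07 M to 22.9 M (median 9.52 M) in the depolarized cells and from 8.29 M to 28.9 M (median 10.96 M) in the hyperpolarized cells, and 11612 to 13698 against 12495 to 14351 genes had a count. Mitochondrially encoded genes held 0.663% to 3.60% of the counts of depolarized cells and 0.695% to 10.87% of those of hyperpolarized cells, where the highest value belonged to hyperpolarized cell 10. Every one of the 23 cells had counts of Pvalb, Gad1, Gad2 and Slc32a1, the calcium buffer parvalbumin, both GABA-synthesizing enzymes and the vesicular GABA transporter. The 3 Fail cells that have a vrest (-67.4, -66 and -66) would have fallen on the hyperpolarized side and were left out.

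Neither membrane label separated the sides in all 3 pairs, but cm did not overlap between the sides within either male pair. The label cm, read as capacitance in pF and a measure of membrane area, ranged from 21 to 83 (median 30) in 13 depolarized cells and from 18 to 102 (median 44.5) in the 8 hyperpolarized cells that have it. Pool means of cm were 27 against 42.7 in P35 males, 27 against 76 in P36 males and 36.3 against 23 in P40 females. In P35 males cm was 24 and 30 in the depolarized cells and 31 to 60 in the hyperpolarized cells that have it. In P36 males it was 25 to 30 against 52 to 102, whereas the cells of P40 females overlapped. The male pairs thus also compare cells of lower cm with cells of higher cm. The depolarized mean was lower in both male pairs and higher in the female pair, and the mean of the 3 differences was -17.1 ± 31.2 (SD, n = 3 pairs, exact two-sided permutation p = 0.5). The label rm, read as membrane resistance in MOhm, ranged from 105 to 805 (median 261) against 100 to 654 (median 248.5), and its mean paired difference was 36.9 ± 270 (SD, n = 3 pairs, exact permutation p = 0.75). In P36 males rm did not overlap either, at 232 to 509 in the depolarized and 100 to 188 in the hyperpolarized cells. With 3 pairs the permutation test cannot go below p = 0.25.

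**Figure D1:**
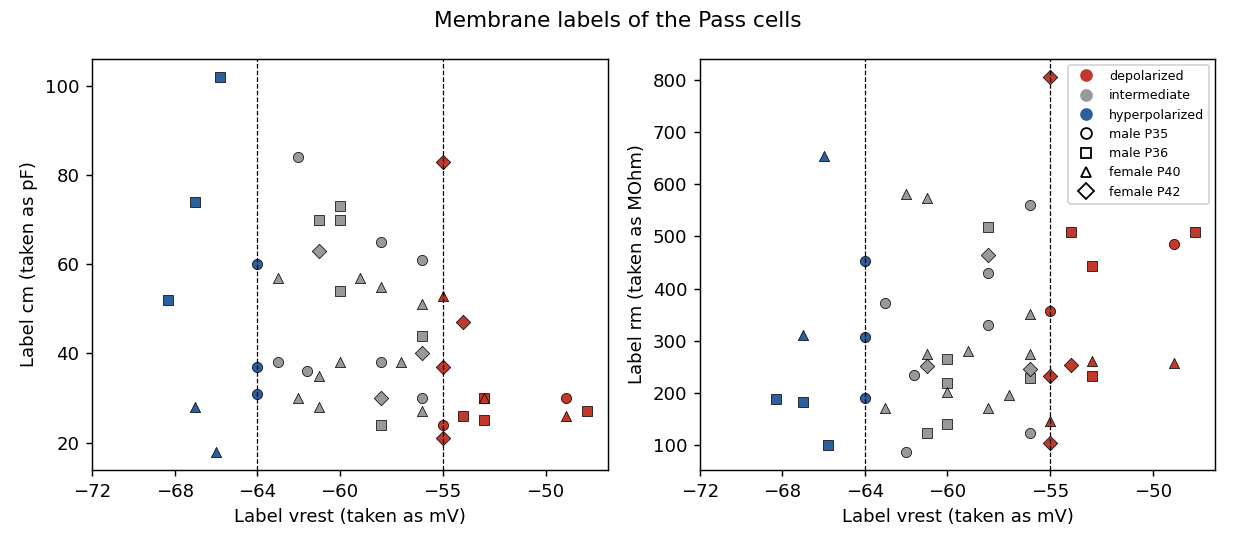
Each point is 1 cell that passed quality control, with its vrest on the x axis and cm (left) or rm (right) on the y axis; colour marks the side and shape the sex and age, and dashed lines stand at -55 and -64. The 13 depolarized and 8 hyperpolarized cells with values overlap over most of both y axes. Among male cells alone cm did not overlap, at 24 to 30 in depolarized and 31 to 102 in hyperpolarized cells.

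Gene levels were compared on counts summed over the cells of 1 side, sex and age, which gave 6 sums in 3 pairs. The P42 females, with 4 depolarized cells and no hyperpolarized one, are shown as a further depolarized pool outside that test. Where a fit left out hyperpolarized cell 9, the P40 female hyperpolarized sum was cell 10 alone. Where it left out depolarized cell 1 or 2, the P35 male depolarized sum was the other of these cells alone. In a sum, a lower level in every cell and a high level in fewer cells cannot be told apart, so values per cell are given beside it. Differences are log2, depolarized minus hyperpolarized, with the standard error from edgeR, and levels are CPM, counts scaled to 1 M of the cell's or sum's total. No gene passed the threshold: edgeR's quasi-likelihood test called 0 of 12985 genes at a Benjamini-Hochberg adjusted p under 0.05 (0%), and the smallest adjusted p was 0.992. At an unadjusted p under 0.05 it gave 423 genes (3.26%), 201 higher (1.55%) and 222 lower (1.71%) in the depolarized cells. DESeq2 on the same sums called 202 genes (1.56%), 106 higher (0.816%) and 96 lower (0.739%). In counts simulated for this comparison DESeq2 called many more of the genes drawn with no difference than edgeR did. The adjusted p-values of DESeq2 are therefore given only as an alternative, and no call rests on them. Those counts were drawn with dispersions estimated by edgeR and without differences between sexes and ages, so their setting differs from the data. In them edgeR itself missed most of the 2-fold and 4-fold changes that were set. The lack of calls therefore does not show that levels were equal. A difference of 1 sign in 3 of 3 pairs was found for 3048 genes (23.5%), and the 4 depolarized and 3 hyperpolarized pools did not overlap for 655 (5.04%). The genes described next are those of smallest p or of lists on membrane, synapse and cell type, given as values.

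Among the 10 genes of smallest p with a higher depolarized level, Racgap1 led (chr15:99620496-99651656, minus strand, GRCm38), whose product acts at cell division. Its pools stood at 22.1, 12.9, 87.8 and 13.9 CPM in the depolarized P35 male, P36 male, P40 female and P42 female pools, against 0.163, 0.0600 and 0.475 CPM in the 3 hyperpolarized pools. The depolarized cells ranged from 0.264 to 133 CPM (median 16.9) and the hyperpolarized cells from 0 to 0.694 (median 0.115). Depolarized cells 7 and 13, both from P40 females, held 72.9% of the depolarized counts, and 7 of 13 depolarized but 0 of 10 hyperpolarized cells reached 10 CPM. All hyperpolarized cells together gave 25 counts of the gene. The difference was 7.39 ± 1.19 (SE, n = 3 pairs, edgeR adjusted p = 0.992, DESeq2 adjusted p = 3.2e-17), and it was 3.97 with limma on mean log2(CPM + 1) over cells, which weights cells equally. The cells in between had a median of 0.53 CPM, nearer the hyperpolarized cells, and 7 of the 26 reached 10 CPM.

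Rps6ka2, a ribosomal S6 kinase downstream of growth factor signalling, was the most even of these genes over the depolarized cells. It ranged from 45.8 to 187 CPM (median 74.2) in them and from 0.115 to 73.5 CPM (median 9.14) in the hyperpolarized cells. The hyperpolarized cells fell into 4 under 1 CPM and 6 above, and 0 of them passed the depolarized median, while 13 of 13 depolarized cells passed the hyperpolarized one. Its pools were at 72.8, 88.0, 103 and 74.9 CPM against 9.87, 20.5 and 34.9, a difference of 2.16 ± 0.55 (SE, edgeR adjusted p = 0.9998, DESeq2 adjusted p = 0.0080). Eml1, a microtubule-binding protein (chr12:108370957-108539617), stood at 128, 50.5, 51.4 and 26.2 CPM against 16.2, 5.42 and 3.61 CPM, a difference of 3.32 ± 0.64. The single cells overlapped, at 0.742 to 162 CPM (median 42.3) against 0.809 to 36.4 (median 7.44), and the median in between, 39.2 CPM, was near the depolarized one. Camk1g, a calcium- and calmodulin-dependent kinase (chr1:193346346-193370298), was at 87.0, 231, 91.7 and 189 CPM against 37.9, 80.5 and 21.0. Its difference of 1.59 ± 0.39 became 0.83 without depolarized cell 1. For all 4 of these genes the depolarized pools lay above every hyperpolarized pool, as they did for 354 of all genes tested (2.73%). The genes were picked by p and sign on the same sums, so such pools follow largely from the choice.

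The other members of the 10 had fewer hyperpolarized counts than Eml1, Rps6ka2 and Camk1g, which had 1536, 2487 and 7253. So did Racgap1, at 25. R3hcc1l, Gas1, a surface protein that binds hedgehog ligands, and Ighm, the heavy chain of immunoglobulin M, had 215, 542 and 222 counts over all hyperpolarized cells. Their differences were 5.24, 4.17 and 4.93, and their single cells overlapped. In the P35 male pair Gas1 had 412 depolarized and 465 hyperpolarized counts. Those sums held 6.83 M and 73.5 M counts in all, so the Gas1 levels were 60.3 and 6.33 CPM. Depolarized cell 13 alone held 54.6% of the depolarized counts of R3hcc1l and 86.2% of those of Gas1. Gemin8, a subunit of the complex that assembles splicing ribonucleoproteins, Cyth4 and Plagl2 had 12, 9 and 4 counts over all hyperpolarized cells, with at least 1 pool at 0, so no fold is given. No gene of the 10 separated all single cells of the sides.

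Of the 10 genes of smallest p with a lower depolarized level, Sst and Slc17a7 mark other neuron classes. In 10 of the 10, the top 2 hyperpolarized cells held over 50% of that side's counts, as they did in 8 of the 10 genes with a higher depolarized level. Such shares also follow library size. Hyperpolarized cells 3 and 6, the largest at 28.1 M and 28.9 M counts, held 50.7% of that side's counts of Gad1 and 45.8% of those of Snap25. The share over all genes tested was not counted, so these numbers do not set the 10 genes apart. Sst encodes somatostatin, the peptide of a neighbouring interneuron class (chr16:23889573-23890958). Its pools were at 74.4, 53.2, 11.9 and 4.70 CPM in the depolarized and 575, 157 and 350 CPM in the hyperpolarized cells, a difference of -3.11 ± 0.57 (SE, n = 3 pairs, edgeR adjusted p = 0.993, DESeq2 adjusted p = 9.9e-07). The medians over cells were close, 5.73 CPM (0.420 to 200) against 7.87 CPM (0.115 to 3298). Hyperpolarized cells 2, 3, 6 and 9, at 3298, 320, 268 and 589 CPM, stood apart from the other 6, which were all under 10 CPM. Cell 2 held 57.7% of the hyperpolarized counts. The difference was -1.35 without hyperpolarized cell 9 and -0.80 with limma on mean log2(CPM + 1).

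Slc17a7, the vesicular glutamate transporter of excitatory cortical and hippocampal neurons (chr7:45163949-45176142), had depolarized pools of 10.5, 7.77, 3.76 and 9.05 CPM and hyperpolarized pools of 87.2, 80.2 and 70.4 CPM. Depolarized cells ranged from 0.262 to 32.8 CPM (median 3.03) and hyperpolarized cells from 0.178 to 409 CPM (median 15.8), with hyperpolarized cells 5, 8 and 10 at 409, 344 and 149 CPM. Its difference was -3.57 ± 0.66 (SE, edgeR adjusted p = 0.993), and -2.46 without hyperpolarized cell 5. The median in between, 27.0 CPM, lay above both sides.

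C1ql1, a secreted protein of the C1q family that also stands among the oligodendrocyte precursor markers used here (chr11:102939264-102946688), rested on a pair of cells. Its pools were at 4.25, 0.322, 0.136 and 1.52 CPM against 88.2, 63.0 and 5.08 CPM. Hyperpolarized cells 1 and 5, at 669 and 339 CPM, held 98.4% of that side's counts, and every other cell of either side was at or under 11.2 CPM. The medians were 0.459 CPM in depolarized and 0.867 CPM in hyperpolarized cells. Its difference was -5.69 ± 1.14, and -3.66 without hyperpolarized cell 5.

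Pthlh, a parathyroid hormone-related peptide found in PV interneurons (chr6:147252101-147264183), was spread over more cells. Even so, hyperpolarized cells 1 and 5, the same as for C1ql1, held 56.0% of that side's counts. Pthlh ranged from 0.436 to 43.6 CPM (median 3.43) in depolarized cells and from 2.08 to 490 CPM (median 55.5) in hyperpolarized cells. Of the depolarized cells, 0 of 13 passed the hyperpolarized median. Its pools were at 41.4, 12.2, 13.6 and 3.99 CPM against 119, 95.7 and 51.5 CPM, a difference of -2.15 ± 0.57 that was -0.92 without hyperpolarized cell 9. Txlna, which binds syntaxins, and Jade1, a subunit of a histone acetyltransferase complex, had differences of -2.96 ± 0.65 and -2.51 ± 0.65, with 1 of 13 depolarized cells above the hyperpolarized median in both. Bpgm, an enzyme best known from red blood cells, was at -2.29. Hyperpolarized cell 10, at 556 CPM, held 37.8% of that side's Bpgm counts. That cell also had the highest summed level of red blood cell markers, 29770 CPM. Under the alternatives the Bpgm difference ranged from -3.39 to -1.10. Ttr, transthyretin, was at -1.83 in the 3 pairs, but the P42 female pool outside the test held 2383 CPM, of which depolarized cell 12 gave nearly all (6937 CPM). For 6 of the 10 genes the depolarized pools lay below every hyperpolarized pool, as they did for 301 of all genes tested (2.32%). The 10 were picked by p and sign on the same sums, so this count is not separate support for them.

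**Figure D2:**
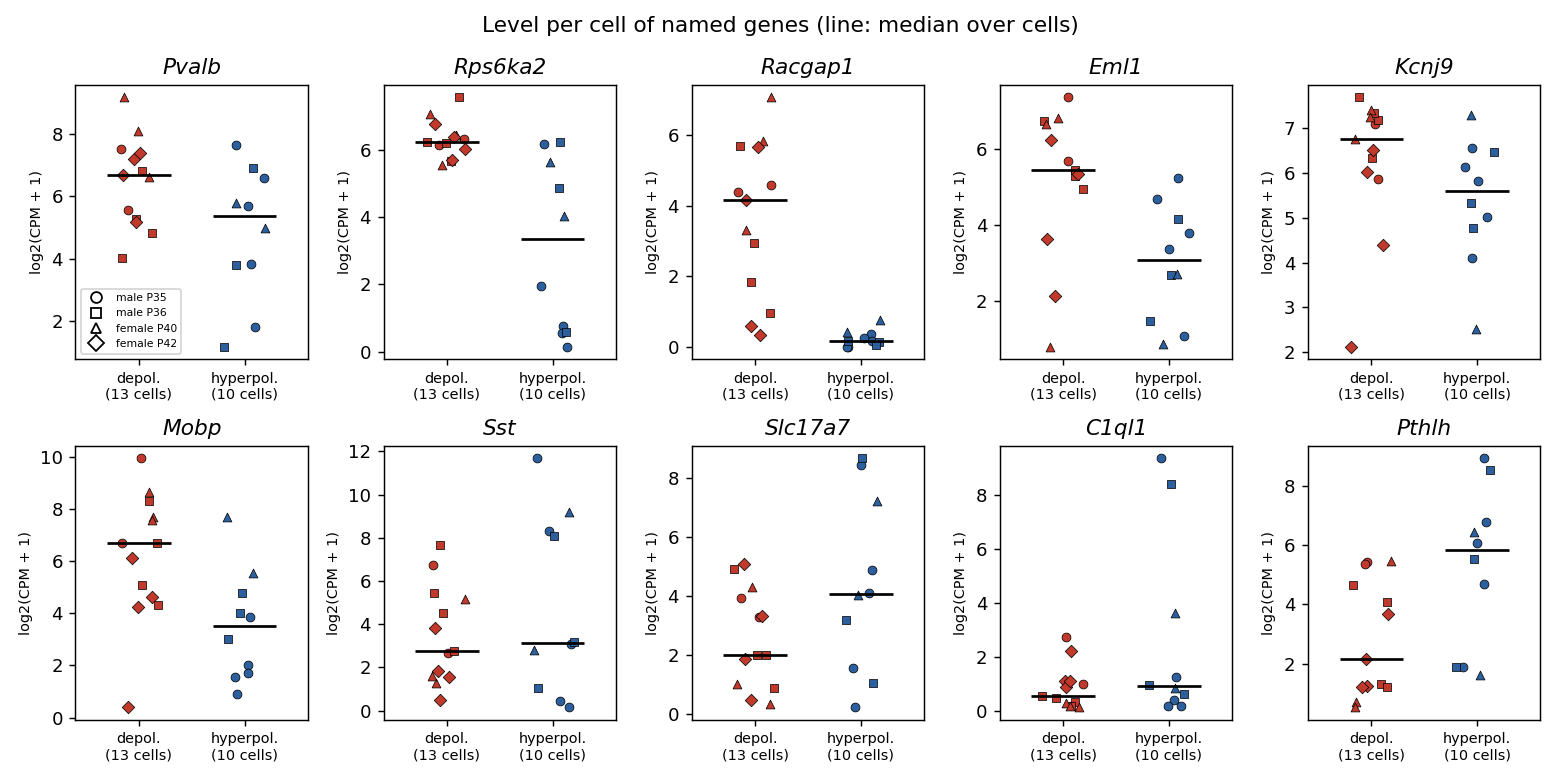
Each point is 1 cell, at its log2(CPM + 1) on the y axis of 10 genes, by side on the x axis, with shape for sex and age and a line at the median over cells. Racgap1 and Rps6ka2 are higher over most depolarized cells, whereas for Sst and Slc17a7 the sums differ through 4 and 3 high hyperpolarized cells.

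Markers of PV identity were present on both sides, and none passed edgeR's adjusted threshold. Pvalb itself (chr15:78191114-78206400) ranged from 15.1 to 582 CPM (median 103) in depolarized and from 1.24 to 200 CPM (median 40.3) in hyperpolarized cells, with pools of 142, 57.5, 237 and 107 CPM against 69.3, 31.6 and 40.3 CPM. Its difference was 1.45 ± 0.45 (SE, n = 3 pairs, higher in 3 of 3 pairs, edgeR adjusted p = 0.9998, DESeq2 adjusted p = 0.071), and 0.91 without depolarized cell 1. In the cells in between the median was 131 CPM, above both sides. Pvalb exceeded Sst in 11 of 13 depolarized, 6 of 10 hyperpolarized and 21 of 26 intermediate cells. It exceeded Slc17a7 in 13 of 13, 6 of 10 and 22 of 26, in counts that are not scaled to gene length. Gad1 exceeded Slc17a7 in every cell of the 3 groups. Gad1, Gad2 and Slc32a1 had differences of -0.04 ± 0.30, 0.28 ± 0.37 and 0.02 ± 0.88.

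Of 18 tested genes of a PV interneuron list, 11 had a positive and 7 a negative difference, with a median of 0.12 beside -0.007 over all genes tested, of which 49.6% were positive. Pvalb and Gpr149, an orphan receptor, were the 2 with a higher depolarized level at an unadjusted p under 0.05, and Pthlh the 1 with a lower level, beside 1.55% and 1.71% of all genes tested. Gpr149, named after its values were seen, rested on few cells: 4 of 13 depolarized and 1 of 10 hyperpolarized cells reached 10 CPM. Kcnc1 and Kcnc2, the Kv3 channels that let PV cells fire fast, had differences of -0.11 ± 0.30 and 0.22 ± 0.33. Vamp1 and Cplx1, of the release machinery of fast-spiking cells, were at 0.52 ± 0.38 and 0.11 ± 0.27. The lists were drawn up with earlier results of these data known.

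Markers of other neuron classes were high in a few hyperpolarized cells, which differed from marker to marker. These were cells 2, 3, 6 and 9 for Sst, 5, 8 and 10 for Slc17a7, 1 and 5 for Cck, and 2 for Npy. Such cells were not confined to that side. Sst reached 100 CPM in 2 of 13 depolarized, 4 of 10 hyperpolarized and 3 of 26 intermediate cells. Slc17a7 reached 50 CPM in 0 of 13, 3 of 10 and 7 of 26. Cck was at 440 and 292 CPM in depolarized cells 9 and 10. Of 12 tested markers of other interneurons, 6 were positive and 6 negative, and the 3 with a lower level at an unadjusted p under 0.05 were Sst, Cck and Npy. Cck, cholecystokinin, was at -1.18 ± 0.32 and 0.0070 without hyperpolarized cell 5. Npy, neuropeptide Y, was at -2.49 ± 0.75 and -0.09 without hyperpolarized cell 2, which held nearly all of it (3779 CPM). All 8 tested excitatory neuron markers were negative, with a median of -1.63, of which Slc17a7 alone passed an unadjusted p under 0.05. Neurod2, a transcription factor of excitatory neurons, was at -3.54 ± 1.88 and Camk2a at -0.63 ± 0.45. The summed level of the 11 excitatory markers ranged from 24.7 to 544 CPM (median 109) in depolarized and from 47.5 to 890 CPM (median 112) in hyperpolarized cells, and Emx1 had a median of 0 on both sides. Sums were also made without the 6 cells in which Sst exceeded Pvalb, hyperpolarized cells 2, 3, 6 and 9 and depolarized cells 5 and 6. The cells high in Slc17a7 or Cck stayed in, and the P40 female hyperpolarized sum was then cell 10 alone. In these sums Racgap1 was at 6.31, Rps6ka2 at 1.62, Slc17a7 at -5.43 and Jade1 at -0.69.

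No channel that carries the resting current passed the adjusted threshold. Of 7 tested two-pore domain potassium channels, 2 were positive and 5 negative (median -0.20), and none had an unadjusted p under 0.05. Kcnk1 (TWIK1) had pools of 196, 270, 237 and 249 CPM in the depolarized and 208, 269 and 250 CPM in the hyperpolarized cells, a difference of -0.07 ± 0.28. Kcnk3 (TASK1) was at 84.7, 113, 66.3 and 88.2 CPM against 131, 89.7 and 111 CPM, -0.37 ± 0.38. The pools of both overlapped. Kcnk9 did not reach the minimum count and was not tested.

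Kcnj9 (GIRK3), a subunit of the G protein-gated inward rectifiers (chr1:172320501-172329318), was the 1 of 10 tested inward rectifier genes with an unadjusted p under 0.05 (0.012), and its level was higher in the depolarized cells. It ranged from 3.37 to 205 CPM (median 107) in them and from 4.74 to 155 CPM (median 47.4) in the hyperpolarized cells, and 11 of 13 depolarized cells passed the hyperpolarized median. The 3 paired depolarized pools, at 112, 137 and 149 CPM, lay above the hyperpolarized pools at 43.1, 48.3 and 93.5 CPM, but the P42 female pool was at 39.5 CPM, below all of them. The difference was 1.16 ± 0.38 (SE, n = 3 pairs, edgeR adjusted p = 0.9998, DESeq2 adjusted p = 0.15). Without hyperpolarized cell 9, the highest of that side, it was 2.40, with cell 10 alone (4.74 CPM) in the P40 female hyperpolarized sum. With the P42 pool added and no pairing the difference was 0.78. Kcnj3 (GIRK1), its partner subunit, was at 0.28 ± 0.52. The list as a whole had 5 positive and 5 negative members.

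Sodium leak and HCN channel genes had differences near or under their standard errors. Nalcn and Unc80, the pore and an auxiliary subunit of the sodium leak channel, had differences of 0.39 ± 0.46 and -0.05 ± 0.35, and Hcn2 of -0.06 ± 0.54. Of the 8 tested genes of that list 4 were positive, and none had 1 sign in 3 of 3 pairs. For Nalcn, pools stood at 72.5, 46.1, 101 and 34.5 CPM against 92.8, 21.6 and 72.6 CPM, and they overlapped. Of 6 pump genes 3 were positive, with the beta subunit Atp1b1 at 0.17 ± 0.26. Chloride transporters and channels had 11 positive and 4 negative members of 15 (median 0.31). Slc12a5 (KCC2), which extrudes chloride, was at 0.31 ± 0.32 and Clcn2, a chloride channel open at negative potentials, at -1.42 ± 0.85, lower in 3 of 3 pairs. Clcn2 was above the depolarized median in 9 of 10 hyperpolarized cells, at 19.6 to 162 CPM (median 53.9) against 1.22 to 101 CPM (median 23.6) in depolarized cells.

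The channels that shape spikes gave a similar picture. Of 19 Kv1, Kv2 and Kv4 genes and their partners, 11 were positive and 8 negative, 6 were higher in 3 of 3 pairs, and none had an unadjusted p under 0.05. Over all genes tested, 49.6% were positive, 11.8% were higher in 3 of 3 pairs and 3.26% had such a p. Kcnab1, a Kv1 beta subunit, stood at 416, 417, 622 and 344 CPM against 295, 335 and 286 CPM, so that its pools did not overlap, and differed by 0.63 ± 0.29. Kcnip4, a Kv4 partner, was at 1.62 ± 0.85 through the female pair, where the pools were 105 and 3.42 CPM. Kcna1 was at 0.18 ± 0.46. Of the Kv7 genes behind the M-current, Kcnq3 was at -1.40 ± 1.46. The calcium-activated Kcnma1 and the sodium-activated Kcnt1 potassium channels were at 0.14 ± 0.34 and -0.43 ± 0.57. Among 11 sodium channel genes 6 were positive, with Scn1a, the main sodium channel of PV cells, at 0.35 ± 0.27 and Scn8a at -0.11 ± 0.32. Cacna1d, an L-type calcium channel that opens at low voltage, was at 2.42 ± 1.26 with pools of 33.0, 23.4, 24.6 and 15.7 CPM against 11.1, 9.68 and 0.855 CPM, and its cells overlapped.

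Of the channel lists, that of TRP and other cation channels had the highest median, 1.03, with 11 positive and 4 negative members of 15. In it 7 members were higher in 3 of 3 pairs (11.8% of all genes were). Despite its name the list also holds Ano1, a chloride channel, which the chloride list above does not count. Trpm4, a sodium-conducting channel opened by calcium, was the 1 member with a higher level at an unadjusted p under 0.05. Its pools were at 5.57, 39.3, 24.8 and 8.80 CPM against 0.259, 0.880 and 0.617 CPM. It reached 10 CPM in 6 of 13 depolarized, 0 of 10 hyperpolarized and 5 of 26 intermediate cells, with depolarized cells 3 and 13 holding 77.4% of the depolarized counts. Its difference was 5.05 ± 1.40 (SE, edgeR adjusted p = 0.9998, DESeq2 adjusted p = 3.4e-05), 4.05 without depolarized cell 3 and 2.28 with limma on mean log2(CPM + 1). Ano1, a chloride channel opened by calcium, had the lower depolarized level, at 1.02, 20.7, 0.317 and 0.0441 CPM against 27.7, 44.3 and 29.6 CPM, -4.23 ± 1.44. It passed the depolarized median in 10 of 10 hyperpolarized cells, but that median was 0.443 CPM. Hyperpolarized cells 1, 5, 7 and 10 were at 0.725, 0.543, 4.34 and 1.73 CPM. Ano1 reached 10 CPM in 6 of 10 hyperpolarized, 3 of 13 depolarized and 4 of 26 intermediate cells. Ano1 was at -2.18 without the cells in which Sst exceeded Pvalb.

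**Figure D3:**
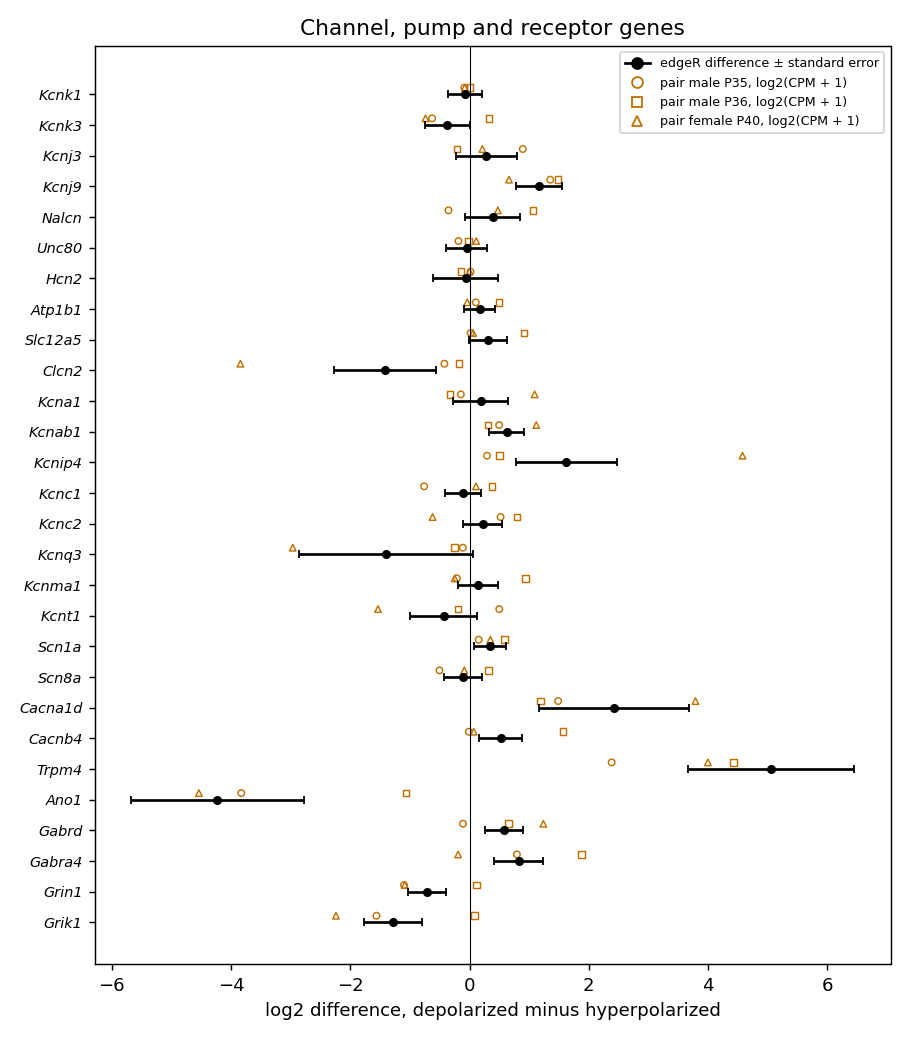
Black points are edgeR differences, depolarized minus hyperpolarized (log2), with bars of 1 standard error, for 28 channel, pump and receptor genes; open marks are the 3 pairs on the log2(CPM + 1) scale. Most lie within 1 of 0, and Trpm4 (5.05) and Ano1 (-4.23) lie farthest out.

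Receptors for GABA and glutamate had no member past the adjusted threshold. Of 14 GABA receptor genes 8 were positive, with, of the subunits of extrasynaptic receptors, Gabrd at 0.58 ± 0.33 and Gabra4 at 0.82 ± 0.41. Of 20 glutamate receptor genes 6 were positive and 14 negative (median -0.43). Grik1, a kainate receptor subunit, was the 1 of them with an unadjusted p under 0.05. It ranged from 1.41 to 275 CPM (median 32.6) in depolarized and from 1.45 to 197 CPM (median 135) in hyperpolarized cells, and 1 of 13 depolarized cells passed the hyperpolarized median. Its pools of 36.0, 125, 30.9 and 57.1 CPM against 108, 118 and 149 CPM overlapped, and the difference was -1.29 ± 0.49. Grin1, the obligatory NMDA receptor subunit, was at -0.71 ± 0.32 and Gria1 at -0.34 ± 0.27. Of 22 modulatory receptors, Sstr2, a somatostatin receptor, was the 1 with an unadjusted p under 0.05. It reached 10 CPM in 3 of 10 hyperpolarized and 0 of 13 depolarized cells, and hyperpolarized cells 1 and 5, the same as for C1ql1, held 85.0% of its hyperpolarized counts. Cnr1, the cannabinoid receptor of cholecystokinin interneurons, was at -2.27 ± 1.07.

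Neurexins, the presynaptic adhesion proteins that the study is named for, passed no threshold either. Nrxn3 ranged from 59.2 to 242 CPM (median 190) in depolarized and from 64.8 to 547 CPM (median 191) in hyperpolarized cells, a difference of 0.12 ± 0.30, and Nrxn2 was at 0.33 ± 0.88. Of their partners, Dag1, dystroglycan, was at 1.10 ± 0.59 and Nxph1, neurexophilin-1, at 0.41 ± 0.28, both with pools that did not overlap. Of 13 neurexin features in the deposited isoform table, 2 had enough signal to compare. The share of the long alpha form of Nrxn2 was 82.7%, 14.4% and 11.7% in the paired depolarized pools against 6.30%, 4.71% and 1.54%, higher in 3 of 3 pairs by 32.1 ± 38.4 points (SD, n = 3, exact permutation p = 0.25, the smallest possible). The P42 female depolarized pool was at 1.80%, within the hyperpolarized range. That of Nrxn3 was 92.5%, 69.8% and 94.0% against 78.1%, 80.4% and 99.7%, a mean difference of -0.63 ± 13.3 points (SD, n = 3, exact permutation p = 1). The unit of that table is not stated, so depth is unknown.

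Markers of other brain cells, which a pipette can take up with the cytosol, leaned to the depolarized side for oligodendrocytes. All 10 of their markers were positive, with a median of 2.56, and 4, among them Mobp, Mbp and Opalin, had an unadjusted p under 0.05. Mobp, a myelin protein (chr9:120149707-120181484), was at 369, 99.4, 232 and 32.1 CPM in the depolarized and 3.08, 15.3 and 112 CPM in the hyperpolarized pools, a difference of 3.21 ± 0.99, and 12 of 13 depolarized cells passed the hyperpolarized median. Mbp was at 1.38 ± 0.44, 0.62 without depolarized cell 2 (2357 CPM) and 0.097 with bounds at -56 and -63. Opalin had at least 1 hyperpolarized pool at 0, so no fold is given. The summed oligodendrocyte level ranged from 142 to 5604 CPM (median 565) in depolarized, from 171 to 1180 CPM (median 402) in hyperpolarized and from 97.7 to 12822 CPM (median 671) in intermediate cells. Its part in the other differences was not tested.

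The remaining marker lists overlapped between the sides. Of 5 tested oligodendrocyte precursor markers 3 were positive (median 0.30), and 2 had an unadjusted p under 0.05, in opposite directions. These were C1ql1, described above, and Gpr17, a receptor of maturing precursors, which was higher in the depolarized cells but had 1 hyperpolarized pool at 0, so no fold is given. Gpr17 reached 10 CPM in 1 of 13 depolarized and 0 of 10 hyperpolarized cells. The summed level of the precursor markers ranged from 1.15 to 223 CPM (median 8.83) in depolarized and from 2.53 to 741 CPM (median 36.8) in hyperpolarized cells. Of 9 astrocyte markers 7 were positive (median 0.97), with summed levels of 84.3 to 2286 CPM against 394 to 1491 CPM, and of 11 microglial markers 7 were positive (median 0.53), at 65.6 to 3489 CPM against 40.6 to 3438 CPM. C1qb, a complement gene of microglia, was at 0.53 ± 0.68. Endothelial and mural markers were near 0, with 7 of 9 and 6 of 8 at a median of 0 on both sides. Of 5 red blood cell markers 4 were positive (median 1.48), and none had an unadjusted p under 0.05. Their summed level ranged from 6.94 to 4747 CPM (median 72.8) in depolarized and from 3.10 to 29770 CPM (median 31.0) in hyperpolarized cells. Both sides had 1 cell far above the others: depolarized cell 2 held 32.9% of its side's counts of Hba-a1, a haemoglobin chain, and hyperpolarized cell 10 held 98.6%.

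Metabolic genes were close to 0, and most activity genes had negative differences that did not pass a test. The 13 mitochondrially encoded genes had 12 positive differences but a median of 0.05, and 32 nuclear oxidative phosphorylation genes had a median of 0.06, with Atp5b at -0.15 ± 0.27. Of 19 early genes 6 were positive and 13 negative, with a median of -0.37 and a range from -3.12 to 1.0, and none had an unadjusted p under 0.05. Fos, Egr1 and Junb, which are induced by activity and by slicing alike, were among the 6 positive ones, at 0.46 ± 0.28, 0.59 ± 0.28 and 1.0 ± 0.46. In the matrix of perineuronal nets, Hapln1 was at 1.84 ± 1.27 and Ncan at -1.42 ± 0.80. The Y-linked Ddx3y was at 0.25 ± 0.66, and its level was high in both male pairs and under 1 CPM in the female pools, as their labels state.

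**Figure D4:**
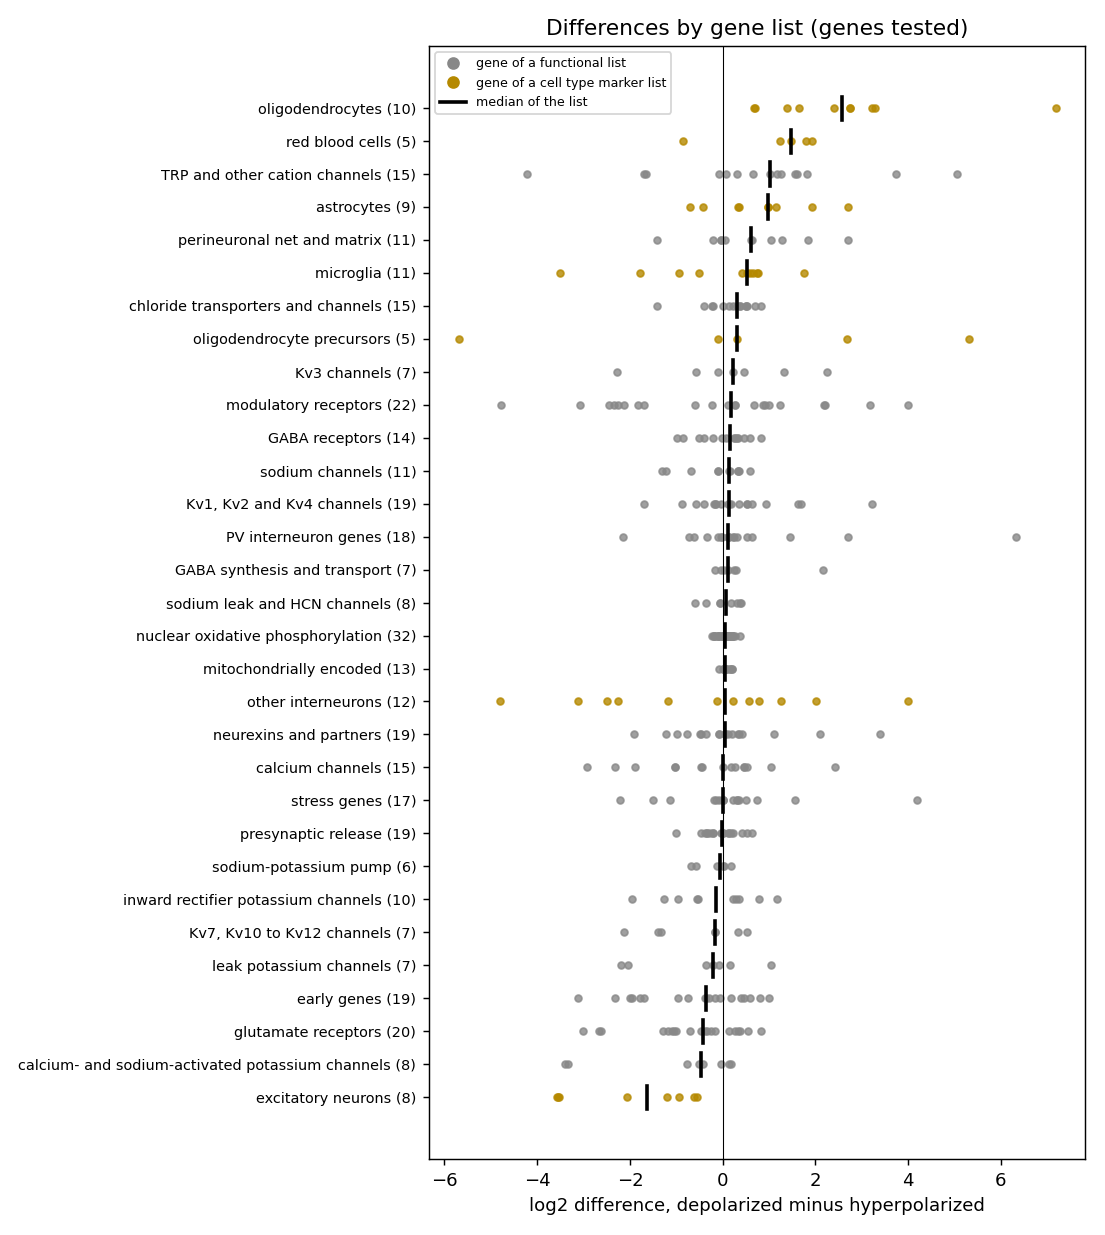
Each point is 1 tested gene at its edgeR difference (log2, depolarized minus hyperpolarized) on the x axis, by list on the y axis, with the number tested in brackets and a bar at the list's median. Lists with at least 5 genes tested are shown, ordered by median, from excitatory neuron markers (-1.63) to oligodendrocyte markers (2.56), and lists of resting conductances lie near 0.

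Cells resting between the sides did not lie between them in most of the lower genes. The intermediate median fell between those of the sides for 7 of the 10 genes with the smallest p and a higher depolarized level, but for 3 of the 10 with a lower one, where 6 lay above both. Just inside the bounds, the 5 cells at -55 had median levels of 103 CPM for Pvalb and 2.71 CPM for Slc17a7, and the 4 cells at -64 of 73.0 and 22.4 CPM. Just outside, the 6 cells at -56 were at 125 and 37.7 CPM and the 2 cells at -63 at 184 and 65.9 CPM. These are few cells and they overlapped: Pvalb ranged from 34.9 to 276 CPM at -55 and from 9.25 to 403 CPM at -56, and the cells at -63 stood at 4.93 and 364 CPM, below and above all those at -64 (13.3 to 200 CPM).

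Sex was spread unevenly, with 7 of 13 depolarized and 2 of 10 hyperpolarized cells from females. The pairing by sex and age holds it fixed in the differences between sums. Medians, ranges and counts over cells are not paired, so in them side is mixed with sex and age. Whether the side difference depends on sex could not be judged, since the 1 female pair has no spread of its own beside the 2 male pairs. The interaction fit singled out 1 of 12985 genes, Alas2, the heme-synthesis enzyme of red cells, at -12.3 (log2), and this value restates 1 cell. Its level was 346 CPM in the hyperpolarized P40 female pool, of which hyperpolarized cell 10 gave 99.8%, and at most 0.391 CPM in the other 5 paired pools.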

How the data were processed

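The members, lists and tests were chosen with earlier results of these data known. The deposited table gives whole-number counts per gene and cell, not normalized. The submitters' processing notes name STAR, the build GRCm38 and edgeR. For versions, counter and strand setting nothing was given in the sources used here. A neurexin table, also deposited by the authors, gives a signal of unstated unit. The labels' protocols name pipette harvest and the Nextera XT kit.

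Cells were assigned by the label vrest. Because animals cannot be assigned to cells from the labels, counts were summed per side, sex and age. P-values measure only the spread between these sums, and the 2 sums of a pair may share animals. Genes with a count in at least 8 of the 23 cells that passed filterByExpr were tested, 12985 of 25648, with edgeR 4.0.16 (R 4.3.3): quasi-likelihood F test, TMM, sex-and-age pool as a block, two-sided, Benjamini-Hochberg, threshold 0.05. Standard errors are the absolute log2 difference over the square root of F. The script was tested on simulated data. DESeq2 1.42.0 and limma 3.58.1 (pseudocounts 1 and 10), other filters, scalings, bounds, thinning to 2.07 M counts and left-out cells were alternatives. Membrane labels and isoform shares (sums of at least 100 in every pool) were compared by exact permutation within pairs. No 2 of the 23 cells had identical counts (0 pairs).

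Named genes were the 10 of smallest p per direction with 1 sign in all pairs, the 2 most abundant and 2 of smallest p of each list, and a fixed set. Of the 137 genes this gave, 86 are followed, chosen after their values were seen, with Opalin, Npy and Gpr149 added likewise. A few genes are not reported here. The levels of 10 CPM were also chosen so. Coordinates are from GENCODE for GRCm38.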

Additional observations from a re-analysis of the deposited data

Results flagged for a closer look

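Of 95 values tested for a sample far from the others of its group, 5 stood out, and chance alone would mark about 1 in 20. Among the 4 depolarized pools, Unc80 was at 143 CPM in the P42 females against 98.9 to 103 CPM in the other 3, and Slc4a3 at 122 CPM in the P35 males against 197 to 209 CPM. Npy was at 21.7 CPM in the depolarized P35 males against 1.70 to 2.30 CPM in the other 3. Hyperpolarized cell 10 had 14351 genes with a count, against 12495 to 13317 in the other hyperpolarized cells, and mitochondrially encoded genes held 10.87% of its counts, against 0.695% to 2.38%. The side difference of Alas2 differed between the female pair and the male pairs by -12.29 (log2) in the fit of that interaction. That fit has 1 female pair, and the value rests on hyperpolarized cell 10, which held 99.8% of the hyperpolarized counts of Alas2, so it is no result on sex.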

How the results depend on the processing

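Under 36 alternatives, of which 17, each leaving out cells, were added after seeing the data, edgeR and limma called 0 genes except for 1 (Sst) with no low-count filter and 6 without the P40 female pair (C1ql1, Ccl4, Egr4, Hba-a2, Hbb-bs and Mobp), and DESeq2 called 202. Leaving out 1 pair gave 0 to 6 calls. No replicate block, with 6 or 7 sums, gave 0 calls; the labels carry no replicate numbers that pair cells, and the block is sex and age. Of the 89 genes followed, 58 had a difference of at least its standard error. Of these, 51 kept their sign under every alternative that gave a value for them, which was 36 for most, 35 for Sst and Pvalb, 34 for Gemin8, 32 for Plagl2, 31 for Cyth4 and Gpr17 and 26 for Opalin. The exceptions were Ttr (1.40 with 7 sums and no block), Chrm2 (-0.12 without the P40 pair), Calb1 (-0.083 with wider and -0.18 with narrower bounds), Nxph1 (-0.056 with narrower bounds), Npy (2.09 with cm at or under 60, 2.08 without hyperpolarized cells 2, 5 and 10), Cck (0.0070 without hyperpolarized cell 5, 1.42 without cells 2, 5 and 10) and Vamp1 (-0.14 without depolarized cell 13). With 1 cell or pair left out at a time, the other ends of the ranges were -4.08 for Npy, -1.65 for Cck and 1.08 for Vamp1. For the 31 genes with a difference under its standard error no direction is claimed, and 29 changed sign under at least 1 alternative. The interaction with sex called 11 genes with RLE scaling in place of 1. The causes were not tested. Sums rest on 2 to 5 cells, and the largest cell gave 33.4% to 69.7% of a sum, so the number of cells limits the precision of these differences.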
